A study of Mus musculus with 9 samples.

Results

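Border-associated macrophages are the macrophages that lie around brain vessels, in the meninges and in the choroid plexus, and they were looked for here across 9 single-cell RNA libraries of mouse brain. Cells were chosen by their counts: a cell was taken when its unique molecular identifiers (UMIs, each counting 1 captured RNA molecule) of Pf4, Mrc1 and Cbr2 summed to 2 or more and it held no UMI of the microglia genes Tmem119 and P2ry12. The rule was met by 263 of 29571 cells, or 0.889% (exact 95% Clopper-Pearson interval 0.785 to 1.00%). The choice was made on measured values, so the levels of these 5 genes describe the choice and were not tested, and neither was any other gene of the cells.

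The mice were male C57BL/6 animals (the J substrain in the methods) of 9 to 11 weeks with no engineered allele given, and every library pooled 3 of them. Brainstem, cortex and hypothalamus were taken at lights off after normal sleep, after 12 h of sleep deprivation by a sweeping bar, or after such deprivation followed by recovery sleep, which is put at 24 h in 1 place of the sample notes and in the methods and at 12 h in another place of the notes. Tissue was dissociated with papain and cleared with myelin removal beads, and no sort for macrophages was made. Only 1 of the 9 libraries, numbered 7, could be tied to a region and sleep group, namely brainstem after normal sleep. The other 8 are given by number in the order of the table, and what that order stands for is not known here, so no comparison between sleep groups or regions was made. Each library is a single sample, and all intervals below cover counting error only.

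Macrophages of the brain borders share complement, Fc receptor and CSF1 receptor genes with microglia, the macrophages of the brain tissue itself, and differ from them in carrying scavenger and mannose receptors and in lacking much of the microglial homeostatic program. They are known for taking up material from the fluid around vessels and for presenting antigen through MHC class II. Where a cell lay in the tissue was not measured here, and fewer cells of a type and less RNA per cell of that type can both lower a share of cells found by UMIs.

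The genes that did the choosing are Pf4, a platelet-type chemokine at chr5:90772435-90773383 (plus strand), Mrc1, the macrophage mannose receptor at chr2:14229392-14332057 (plus strand), and Cbr2, a carbonyl reductase at chr11:120729489-120732114 (minus strand), all on GRCm38. Their promoters are shown because the result turns on them: Pf4 and Mrc1 chose cells with other macrophage genes, while Cbr2 alone mostly did not. Each run holds 250 bases before and 50 after the gene's start from RefSeq on GRCm38.p6, at chr5:90772185-90772484, chr2:14229164-14229463 and chr11:120731972-120732271, 5′ to 3′ on the gene's strand. The capitals mark GAGGAA on either strand (TTCCTC when on the other), letters found in sites of the myeloid factor PU.1.

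Pf4: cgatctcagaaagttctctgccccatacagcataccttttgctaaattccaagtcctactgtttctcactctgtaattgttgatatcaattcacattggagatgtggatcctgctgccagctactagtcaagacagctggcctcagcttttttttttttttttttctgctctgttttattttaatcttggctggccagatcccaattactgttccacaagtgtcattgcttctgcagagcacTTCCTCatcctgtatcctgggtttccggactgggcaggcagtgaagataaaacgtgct

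Mrc1: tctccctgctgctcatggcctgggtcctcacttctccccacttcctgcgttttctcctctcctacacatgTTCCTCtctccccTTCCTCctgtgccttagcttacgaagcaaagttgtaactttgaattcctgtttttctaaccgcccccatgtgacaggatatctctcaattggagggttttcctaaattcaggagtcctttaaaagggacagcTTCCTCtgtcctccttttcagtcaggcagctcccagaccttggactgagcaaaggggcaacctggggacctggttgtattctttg

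Cbr2: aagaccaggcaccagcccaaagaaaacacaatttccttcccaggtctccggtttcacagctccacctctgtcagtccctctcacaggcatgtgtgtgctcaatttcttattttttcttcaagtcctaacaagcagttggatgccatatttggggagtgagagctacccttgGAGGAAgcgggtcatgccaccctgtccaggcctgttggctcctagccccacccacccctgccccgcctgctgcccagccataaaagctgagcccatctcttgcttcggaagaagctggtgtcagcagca

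GAGGAA stood 1 time in the Pf4 window, 3 times in that of Mrc1 and 1 time in that of Cbr2. These letters are common, being present in 28.3% of 27025 such windows. The longer GAGGAAGT, which contains them, was in 3.28% of windows and among these 3 only in that of Pf4. The matches describe the sequence and are not shown to be sites of the factor.

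Libraries held 2575 to 3916 cells and 1522766 to 5488950 UMIs, with a median of 402 to 1055 UMIs per cell. Libraries 4, 5 and 6 stood apart because growth hormone (Gh), made in the pituitary, took 25.3%, 27.9% and 32.1% of all UMIs against at most 0.00755% in each of the other 6. Any pair of libraries shared 5 to 25 cell barcodes. Of the chosen cells, 10 had the barcode of a cell in another library and none that of another chosen cell. Where growth hormone and other RNA of these 3 libraries could enter a result, it is given with and without them. The 2 reference classes used below are the 1738 microglia reference cells, with 2 or more UMIs of Tmem119 and P2ry12 and none of Pf4, Mrc1 or Cbr2, and the remaining cells of each library.

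The chosen cells were unevenly spread over the libraries. Libraries 1 to 9 held 35, 8, 15, 5, 10, 5, 46, 52 and 87 of them. As shares of each library's cells these were 1.36% (0.949 to 1.89), 0.252% (0.109 to 0.496), 0.546% (0.306 to 0.900), 0.143% (0.0465 to 0.334), 0.370% (0.177 to 0.679), 0.128% (0.0415 to 0.298), 1.23% (0.904 to 1.64), 1.48% (1.11 to 1.93) and 2.34% (1.88 to 2.88). Library 9 was highest, and its interval overlapped only those of libraries 1 and 8. Libraries 1, 7 and 8 did not differ beyond their intervals, and libraries 4 and 6 were the lowest. Libraries 7, 8 and 9, whose codes share a stem of unstated meaning, held 185 of the 263 cells (70.3%).

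**Figure D1:**
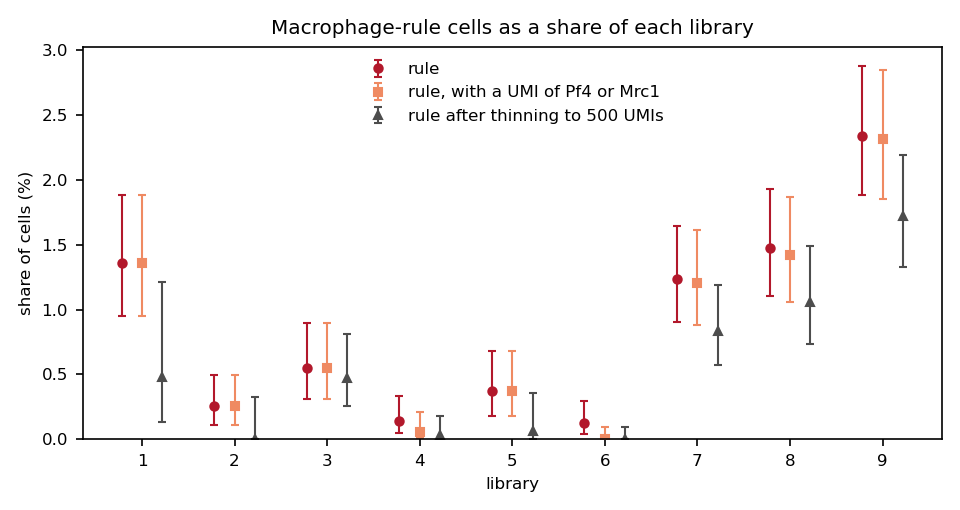
Share of cells in each library (vertical axis, %) that met the rule (circles) or met it with a UMI of Pf4 or Mrc1 (squares). Triangles give the share that met the rule after thinning to 500 UMIs, among cells of at least 500 UMIs only. The 5745 shallower cells are left out of the triangles. Exact 95% intervals are drawn for all 3. Library 9 is highest on all 3 measures (2.34, 2.32 and 1.72%), and library 6 falls to 0 on the last 2.

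Depth differed between the libraries. The chosen cells had a median of 363, 359, 627, 4726, 440.5, 5762, 1075.5, 743.5 and 930 UMIs in libraries 1 to 9. The values of libraries 4 and 6 come from deep cells with Cbr2 alone. Among the cells with a UMI of Pf4 or Mrc1 the medians were 632 in library 4 and 1103, 739 and 925.5 in libraries 7 to 9, which were the deepest and had 3 of the 4 highest shares, and library 1, with a like share, had 363. When every cell was thinned to 500 UMIs and the 5745 shallower cells, 49 of them chosen, were left out, the shares became 0.476, 0, 0.474, 0.0322, 0.0642, 0, 0.837, 1.06 and 1.72%. Among those left out were 31 of the 35 chosen cells of library 1 and all 8 of library 2. Library 1 then had only 4 chosen cells among 840, and its interval of 0.130 to 1.21% overlapped that of library 3, at 0.252 to 0.808%. Library 9, at 1.33 to 2.2%, still overlapped library 8 (0.732 to 1.49%). Microglia ran in the opposite order in libraries 7, 8 and 9. Reference cells numbered 780, 351 and 293 there, so that 5.90, 14.8 and 29.7 cells were chosen per 100 of them.

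Pf4 admitted most cells. A UMI of Pf4 was found in 242 of the 263 cells, one of Mrc1 in 143 and one of Cbr2 in 92. The summed level of Pf4 in the chosen cells, in counts per 1000000 UMIs (CPM), was 9442, 8582, 4285, 231, 4010, 0, 3590, 2579 and 3446 in libraries 1 to 9, and was thus higher in 7 libraries than in libraries 4 and 6. The value of library 4 rests on 3 deep cells without the gene: as a mean over its 5 cells Pf4 was at 1570 CPM, and without cells holding RNA of other types at 3333 CPM. In library 5, Pf4 went from 4010 to 9885 CPM when 3 or more rule UMIs were required. Mrc1 was at 1784, 3776, 1118, 46.3, 2228, 0, 912, 1003 and 908 CPM, with libraries 4 and 6 again lowest and library 2 highest. Cbr2 was at 1487, 1030, 1211, 555, 446, 284, 589, 491 and 338 CPM and was the only one of the 3 present in all 9 libraries. In library 6, where no UMI of Pf4 was counted among 35271, the limit of 3 counts is 85.1 CPM.

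Cells were counted on both sides of the threshold. Just inside it were 74 cells with 2 rule UMIs, 47 had 3, and 142 had 4 to 20. Just outside were 305 cells with 1 rule UMI and 31 with 2 or more that were left out for a microglia gene, 26 of them for a single UMI. Lyz2, which encodes lysozyme of myeloid cells and had no part in the rule, was found in libraries 7 to 9 in 7.31% of cells with no UMI of any of the 5 genes, in 38.0% at 1 rule UMI, in 89.1% at 2, in 97.0% at 3 and in 97.9% at 4 or more, with median depths of 924, 1197, 872, 918 and 905 UMIs. Of the 28 cells left out in these libraries for a microglia gene, 92.9% held Lyz2. Over all 9 libraries Lyz2 was found in 78.4% of cells with 2 rule UMIs, and Gh was at 60930 CPM in those cells. These shares are a description, since Lyz2 comes from the cells that were chosen.

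Libraries 4 and 6 went against the label. Of the 263 cells, 12 were admitted by Cbr2 with no UMI of Pf4 or Mrc1, and 3 of the 5 cells of library 4 and 5 of the 5 of library 6 were among them. All 8 lacked any UMI of Lyz2, of the complement genes C1qa, C1qb and C1qc, and of the immune receptor adaptors Fcer1g and Tyrobp, although they were deep, with 4726 to 9411 UMIs in library 4 and 4539 to 13511 in library 6. They held 16 to 39 UMIs of Gh in library 4 and 61 to 3239 in library 6. Every one of the 8 held Cyp2f2, a cytochrome P450 gene. By contrast, 1 of the 251 cells with Pf4 or Mrc1 lacked all 6 myeloid genes. A UMI of any of the 6 is a weak criterion. In libraries 7 to 9 a C1q UMI was held by 42.5% of cells with no rule or microglia gene UMI, and over all libraries by 20.2%. The 8 cells are therefore called by the rule alone. The name macrophage is kept here as a label for the 251 cells as a group and is not shown for each of them. They numbered 35, 8, 15, 2, 10, 0, 45, 50 and 86 in libraries 1 to 9. For library 6 the share was then 0 of 3916 cells (0 to 0.0942%).

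Library 7 allowed a check against the study's own names. Its list of named cells is held here only in part, for 1999 of the 3731 cells of the library, and 67 of those are named Macrophage. The rule was met by 20 of the 67 (29.9%), by 1 of 549 cells named Microglia and by no cell of the other types on the list. The other 25 of the 46 chosen cells of library 7 were not on the part held. Of the 47 named cells that missed the rule, 32 had no rule UMI, 8 had 1, and 7 had 2 or more along with a microglia gene.

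The named cells inside and outside the rule had different genes. Apoe, the lipid carrier apolipoprotein E, took a median of 5.19% of UMIs in the 20 cells that met the rule and 0.142% in the 47 that did not, at median depths of 1177.5 and 1096 UMIs. At least 2 UMIs of C1q genes were found in 20 of the 20 and in 26 of the 47. At least 2 UMIs of the lymphocyte genes Cd3d, Cd3e, Cd3g, Nkg7 and Ccl5 were found in none of the 20 (exact interval 0 to 16.8%) and in 10 of the 47, a limit on cells with such UMIs and not on cells expressing the genes. Ccl17, a chemokine of dendritic cells, had 22 UMIs in the 47 cells and none in the 20. Retnla, which encodes a secreted resistin-like protein, had 31 and none, and Ear2 had 22 and none. These UMIs came from 3, 2 and 4 of the 47 cells, so most of the 47 held none of the 3 genes either. The 7 cells left out for a microglia gene were like those inside the rule in Apoe, with a median of 5.82%.

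**Figure D2:**
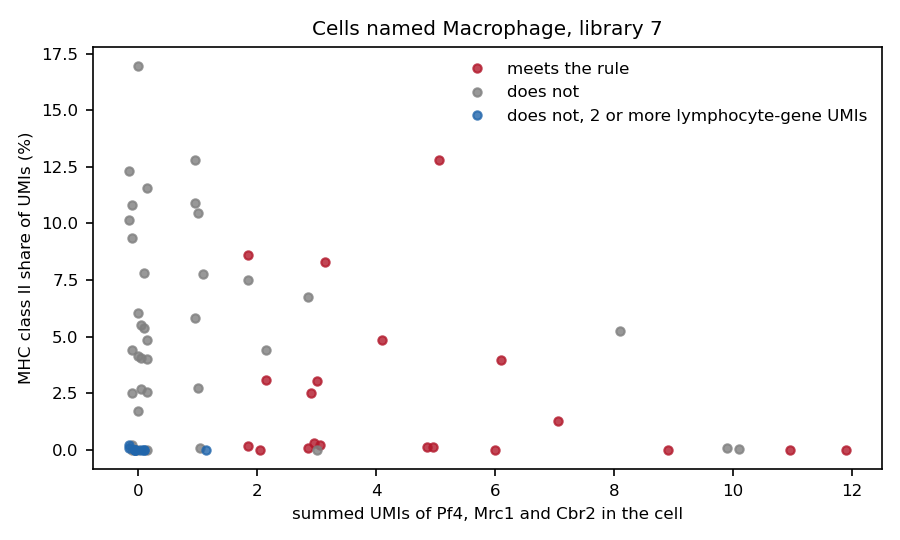
Each point is 1 of the 67 cells named Macrophage in library 7, by its summed UMIs of Pf4, Mrc1 and Cbr2 (horizontal axis, points shifted slightly sideways) and the share of its UMIs from 4 MHC class II genes (vertical axis, %). The 20 cells that met the rule are red, and the 10 with 2 or more lymphocyte-gene UMIs (blue) lie at 0 or 1 rule UMI.

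In the chosen cells many other markers of border-associated macrophages were higher than in microglia, and most markers of microglia were low. A gene was called when CPM + 10 differed at least 2-fold from the microglia reference in the same direction in every library compared. Over all 9 libraries, libraries 4 and 6 included, 3 of 15757 genes were called higher (0.019%) and 12 lower (0.0762%), and the 3 were Cbr2, Lgals1 (galectin-1) and Ehd4. Ehd4 had 1 UMI in the chosen cells of each of libraries 1, 2 and 6, and Lgals1 1 in each of libraries 2 and 6. In the 6 libraries with little growth hormone, 41 of 15471 genes were called higher (0.265%) and 139 lower (0.898%). The rule itself fixed Pf4, Mrc1, Cbr2, Tmem119 and P2ry12. Of the 21 border-associated macrophage markers outside the rule 12 were called higher and none lower, with a median log2 difference of 3.83, against -0.08 over all genes tested. The 9 not called were Cd209g, Fcna, Mgl2, Siglec1, Ccl8, Maf, Clec4n, Pla2g2d and Cp. Of the 14 microglia markers outside the rule 11 were called lower and none higher, with a median of -3.33, and P2ry13, Fcrls and Bin1 were not called. With sums of 0 set to 3 counts in their library, the medians of the 2 lists were 2.84 and -2.13. Small sums of chosen cells often held no UMI of a gene (2913 UMIs in all in library 2). Whether this made lower calls more frequent was not tested. In the 4 libraries with at least 30 chosen cells the fold rule gave 104 higher and 250 lower.

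With a rule that takes counting error into account, namely exact 95% Poisson intervals apart in the same direction in each of the 4 libraries with at least 30 chosen cells (1, 7, 8 and 9), 41 of 15276 genes were higher (0.268%) and 27 lower (0.177%). Outside the rule they took in 11 of the 21 macrophage markers as higher and 9 of the 14 microglia markers as lower. Against the other cells of the 6 libraries with little growth hormone, the fold rule called 113 of 18369 genes higher (0.615%) and 622 lower (3.39%), and 12 of the 21 macrophage markers outside the rule were among the higher.

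Lyz2 was at 6319, 6866, 5775, 231, 6460, 0, 13278, 7144 and 11608 CPM in the chosen cells of libraries 1 to 9. In microglia reference cells it lay between 158 and 567 CPM in the 6 libraries with little growth hormone, and the 2 groups did not overlap there. The median log2 difference was 4.64 (range 3.69 to 5.11). Libraries 7 and 9 were above libraries 1, 2, 3, 5 and 8 in the chosen cells, with intervals whose lower bounds were 12312 and 10898 CPM against upper bounds of at most 10604 CPM.

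Scavenger receptors were among the higher genes. Cd163, which takes up haptoglobin-bound hemoglobin, was at 372, 687, 745, 0, 223, 0, 399, 696 and 384 CPM in libraries 1 to 9, while none of the 1738 reference cells held a UMI of it in 1594613 UMIs, a limit of 1.88 CPM at 3 counts. Lyve1, a hyaluronan receptor of lymphatic endothelium and perivascular macrophages, lay between 228 and 687 CPM in libraries 1, 2, 3, 7, 8 and 9 and had 1 UMI in all the reference cells. In library 2 Cd163 and Lyve1 rest on 2 UMIs each, under its limit of 1030 CPM at 3 counts. Stab1, the clearance receptor stabilin-1, was at 1636, 2746, 1677, 93, 0, 0, 722, 901 and 699 CPM and at 62 to 120 CPM in the reference cells of the 6 libraries. Folr2, the folate receptor beta, lay between 140 and 372 CPM in the 6 libraries and had no UMI in the reference. Of the 16 scavenger receptor genes in the table, 7 were called higher in the 6 libraries and none lower, beside 0.265% of all genes tested called higher. The others were Mrc1, which the rule used, Cd36 and Cd209f. All of the 7 except Cd36 are also on the macrophage marker list, so this count is not a separate result.

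Other surface and secreted markers behaved likewise. F13a1, the coagulation factor XIII A chain, had a median log2 difference of 6.06 (range 5.71 to 7.43), Ms4a7, a tetraspan membrane protein, of 6.10 (5.94 to 6.70), and Dab2, an endocytic adaptor, of 5.42 (5.02 to 6.93). These differences depend on the 10 CPM added, since the reference cells of libraries 1 to 3 held no UMI of the 3 genes. Gas6, a ligand of the phagocytic receptors Axl and Mertk, differed less, at 2.71 (1.33 to 3.38). The transcription factor gene Maf fell just short of a call, with a median of 2.11 and 0.95 in its lowest library, though its intervals were apart in the 4 large libraries. Wfdc17, a small secreted protein that was on none of the lists, was at 966, 343, 1211, 0, 223, 0, 3894, 921 and 3015 CPM in the chosen cells and at most 32 CPM in the reference cells. Its highest libraries were 7 and 9, as for Lyz2.

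**Figure D3:**
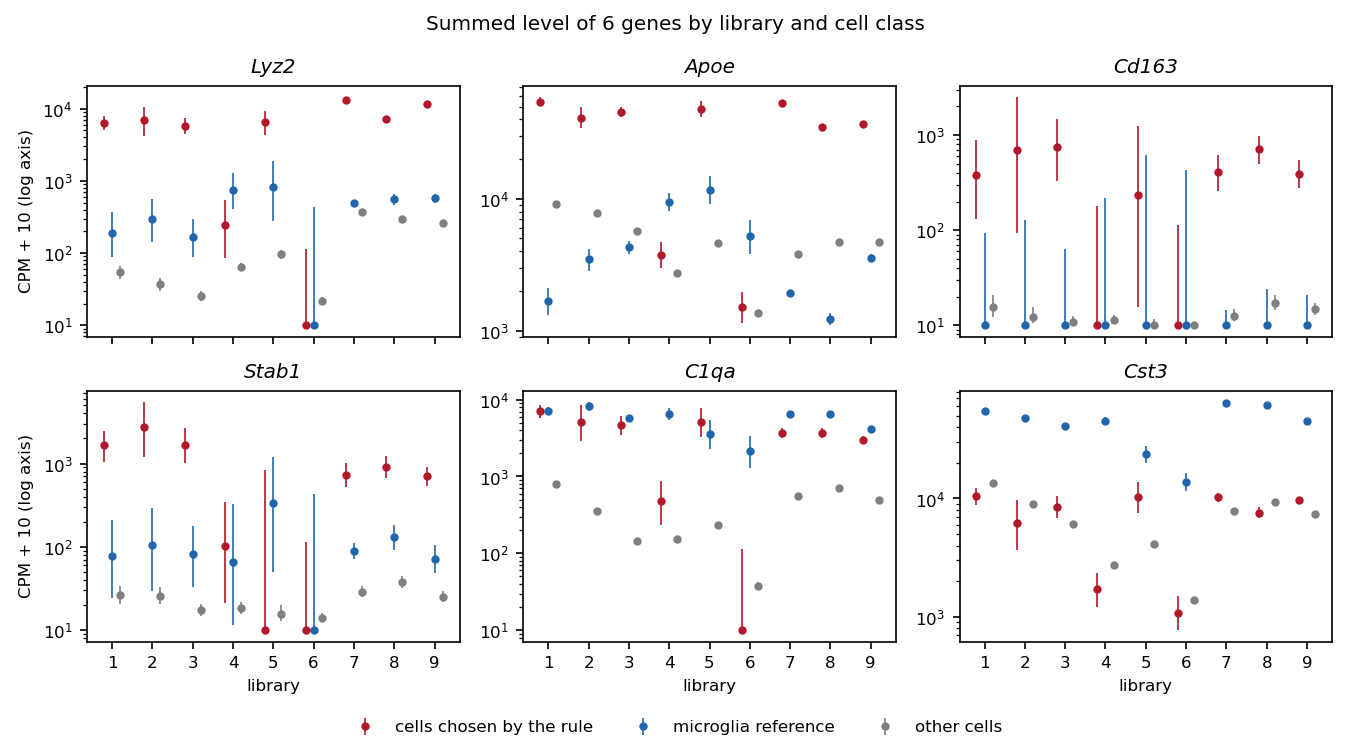
Summed level of 6 genes (vertical axis, CPM + 10 on a log axis) in libraries 1 to 9 in the chosen cells (red), microglia reference cells (blue) and other cells (grey), with exact 95% Poisson intervals. Lyz2, Apoe, Cd163 and Stab1 lie above the reference and Cst3 below it in libraries 1, 2, 3, 7, 8 and 9. C1qa was called in neither direction, and the red points of libraries 4 and 6 lie low for all 6 genes.

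Apoe carried the largest number of UMIs among the lipid genes. It was at 54643, 41195, 45361, 3748, 47895, 1503, 53586, 34842 and 37197 CPM in the chosen cells of libraries 1 to 9, against 1218 to 4286 CPM in the reference cells of the 6 libraries with little growth hormone. Libraries 1, 2, 3, 5, 7, 8 and 9 were thus all high and libraries 4 and 6 low, while the 2 cells of library 4 with Pf4 or Mrc1 were at 60127 CPM. The other cells of those 7 libraries lay between 3811 and 9064 CPM. It was the only one of 11 lipid-handling genes tested that was called. Trem2, a lipid-sensing receptor of microglia, was lower with intervals apart in the 4 large libraries, at 520, 665, 266 and 652 CPM against 2296, 2120, 1858 and 1268.

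Genes for iron storage were higher. Ftl1, the ferritin light chain, was at 13977, 9269, 11457, 1666, 8020, 2183, 14950, 8577 and 8406 CPM, against 2430 to 3562 CPM in the reference cells of the 6 libraries, a median log2 difference of 2.00 (1.35 to 2.15). Fth1, the heavy chain, was at 9144, 9536, 6715 and 7405 CPM in libraries 1, 7, 8 and 9 against 4137, 4889, 4690 and 4390, with intervals apart in all 4. Of 10 iron and heme genes tested 1 was called higher and none lower.

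Some chemokine genes were higher, at levels that varied between libraries. Of 21 chemokine and cytokine genes tested, 5 were called higher in the 6 libraries (Ccl7, Ccl12, Ccl24, Igf1 and Pf4, which the rule used) and none lower. Ccl24 and Pf4 are also on the macrophage marker list. Ccl7, which attracts monocytes, was at 1859, 1716, 186, 0, 5124, 0, 152, 450 and 710 CPM in the chosen cells and at 0 to 9 CPM in the reference cells. Ccl12 was at 2453, 343, 931, 0, 2005, 0, 2260, 450 and 873 CPM, while Ccl24, which attracts eosinophils, lay between 128 and 1041 CPM in the 6 libraries. Ccl2 had its intervals apart in the 4 large libraries, at 1190, 228, 205 and 652 CPM against 0, 56, 16 and 15. The 10 cells of library 5 stood highest for Ccl7 and also had Cxcl2, a neutrophil chemokine, at 4233 CPM and the cytokine Il1b at 1782 CPM, from 19 and 8 UMIs. Elsewhere Cxcl2 did not exceed 221 CPM and Il1b 105 CPM in these cells.

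Few genes of some groups were called against microglia. The complement genes C1qa, C1qb and C1qc, of which C1qa was at 7063, 5149, 4657, 463, 5124, 0, 3704, 3685 and 2957 CPM in the chosen cells, were called in neither direction, with a median log2 difference for C1qa of -0.57. Of 9 complement genes none was called over the 6 libraries. The summed list was nevertheless lower with intervals apart in libraries 7, 8 and 9, at 14019, 12201 and 10641 CPM against 22319, 22876 and 13564, while in libraries 1, 2 and 3 it was at 21188, 17164 and 15089 CPM against 20938, 21324 and 15179. Cfp, which encodes properdin, had a median log2 difference of 3.14 and was at least 2-fold higher in 5 of the 6 libraries, from 0 to 7 UMIs in the chosen cells of each. Tyrobp lay between 2211 and 3569 CPM in the 6 libraries, against 2623 to 3728 in the reference, with a median difference of -0.06. Csf1r, the receptor for the macrophage growth factor CSF1, lay between 570 and 2403 CPM against 1010 to 1950. Among 7 Fc receptor genes only Fcgr2b, the inhibitory receptor, was called, and it was higher with a median of 2.32. None of 9 MHC class I genes was called, and the summed list lay between 3419 and 4844 CPM against 2845 to 5305.

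Of the interferon-related genes 3 were higher. Ifitm3, a membrane protein that restricts viruses, lay between 446 and 1490 CPM in the 6 libraries against 0 to 377 in the reference, with a median log2 difference of 2.56. Ifitm2 had a median of 3.27 and Bst2 (tetherin) of 2.21, and the other 11 of the 14 genes on the list were not called. In the other cells of libraries 7 to 9 Ifitm3 was at 946, 835 and 807 CPM, beside 1197, 1249 and 1083 CPM in the chosen cells, and it was not called against the other cells.

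Most microglial genes were low, with exceptions. Cx3cr1, the fractalkine receptor, was at 149, 0, 0, 46.3, 1782, 0, 152, 348 and 373 CPM in the chosen cells, and in the reference of the 6 libraries between 1118 and 2379 CPM. Library 5 was highest. Fcrls, an Fc receptor-like gene of microglia, was close in both, at 1413, 0, 1118, 570, 430 and 349 CPM in libraries 1, 2, 3, 7, 8 and 9 against 932, 1279, 960, 693, 663 and 330, with a median log2 difference of -0.10. P2ry13 and Bin1 had medians of -1.65 and -0.59 and were not called. Sall1, a transcription factor that marks microglia, had at most 23.3 CPM in the 6 libraries. Cst3, the protease inhibitor cystatin C, lay between 6179 and 10482 CPM against 40735 to 64259. The lysosomal proteases Ctss and Ctsd were also lower, with medians of -2.2 and -2.16, while Ctsb was higher with intervals apart in the 4 large libraries, at 2825, 2355, 1699 and 1257 CPM against 1182, 1440, 1125 and 740. None of the 21 lysosomal genes was called higher by the fold rule.

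Genes of other white blood cells and of platelets were scarce, while those of red cells were not. Of 16 monocyte and dendritic cell markers 8 had no UMI in the chosen cells, among them the defining Flt3, Xcr1 and Clec9a. Ccr2, Cd209a, Ifitm6 and S100a4 led those detected. The summed list lay between 0 and 343 CPM over the 9 libraries. It was nevertheless above the microglia reference with intervals apart in libraries 7, 8 and 9, at 171, 102 and 268 CPM from 9, 5 and 23 UMIs, against 18.2, 3.88 and 38.6 CPM. In library 9 it was also above the other cells, at 68.3 CPM, with intervals apart. The other cells of libraries 7 and 8, at 159 and 130 CPM, overlapped it. Of 10 neutrophil markers 8 had none, S100a9 and Ly6g included, and the list lay between 0 and 255 CPM. Of 7 platelet markers, asked because platelets carry Pf4, Gp1bb, Gp5 and Treml1 had none and the list reached 116 CPM. Of 9 lymphocyte markers 7 had none, with Cd3e, Cd79a and Ms4a1 among them, and the list reached 41 CPM. The 5 red cell genes, 4 globins and Alas2, summed to 2602, 1904 and 10746 CPM in the chosen cells of libraries 7, 8 and 9 and to at most 343 CPM in the other 6. In the microglia reference of libraries 7, 8 and 9 they were at 12838, 3875 and 19400 CPM, and in the other cells at 81614, 35004 and 51224 CPM, so that the chosen cells were lowest of the 3 classes there. Mki67, a proliferation gene, had no UMI in 275857, a limit of 10.9 CPM.

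RNA of brain cells was present in part of the chosen cells. At least 3 UMIs from the endothelial, mural, fibroblast, astrocyte, neuron, oligodendrocyte or ependymal lists were held by 80 of the 263 cells (30.4%) and by 661 of the 1738 reference cells (38.0%). By library the chosen cells with them were 4 of 5 and 5 of 5 in libraries 4 and 6 and 43.7% in library 9, where the reference was at 55.6%. Elsewhere they were 0 to 28.3%. A single chosen cell held up to 107, 67 and 43 such UMIs in libraries 7, 8 and 9. In the 6 libraries the mural list, with Acta2, Tagln, Myl9 and Rgs5 leading, was at 149, 687, 93, 3001, 2641 and 1537 CPM in the chosen cells of libraries 1, 2, 3, 7, 8 and 9, against 1402, 1554, 1447, 5555, 4815 and 3420 in the other cells. The endothelial list was at 223, 687, 1211, 1102, 2313 and 2107 CPM against 2052, 3801, 3239, 10566, 7402 and 5739. Hence both lists were higher in all the other cells than in the chosen ones, and none of the 9 endothelial and 8 mural genes was called against microglia over the 6 libraries. In libraries 7 and 8 the summed mural list was nevertheless above the microglia reference, at 598 and 749 CPM there, with intervals of 2552 to 3507 and 2205 to 3138 in the chosen cells. Restricted to cells with Pf4 or Mrc1 it was at 2295 CPM in library 7, at 754 CPM in library 8, where 2 cells admitted by Cbr2 alone were left out, and at 1113 CPM in library 9, against 1325 in the reference. Their part in the results above was not tested beyond leaving out the 80 cells, which gave 6 higher and 48 lower calls over the 8 libraries that then held cells.

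RNA of antigen presentation genes varied widely among the macrophages. The 4 genes Cd74, the invariant chain, and H2-Aa, H2-Ab1 and H2-Eb1, chains of MHC class II, had no UMI in 129 of the 251 cells with Pf4 or Mrc1 and took up to 12.8% of the UMIs of a cell in the others. At a cut of 1% of a cell's UMIs, chosen after the data were seen, 75 of the 251 were high, and 18 lay near the cut, between 0.5 and 2%. The cut divides a range and does not define a cell type. High cells numbered 1 of 35, 0 of 8, 0 of 15, 1 of 2 and 4 of 10 in libraries 1 to 5, and 17 of 45 (37.8%, 23.8 to 53.5), 11 of 50 (22%, 11.5 to 36.0) and 41 of 86 (47.7%, 36.8 to 58.7) in libraries 7 to 9. At this cut libraries 8 and 9 did not overlap, but they did at cuts of 0.5% (16.2 to 42.5% against 42.4 to 64.3%) and 2% (11.5 to 36.0% against 32.4 to 54.2%) and for cells with any UMI of the 4 genes (33.7 to 62.6% against 58.9 to 79.2%). Library 7 overlapped both at all 3 cuts. In the microglia reference of libraries 7 to 9, 3 of 1424 cells reached the cut (0.211%).

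**Figure D4:**
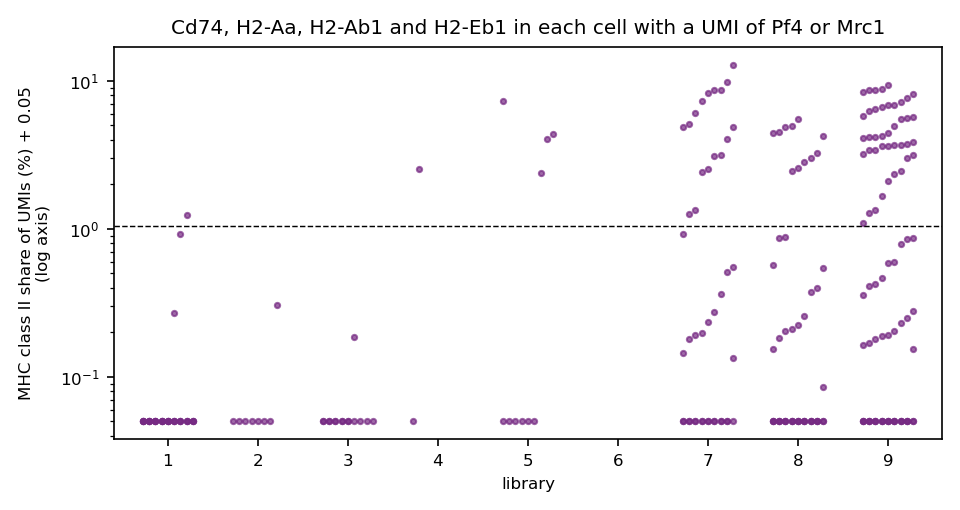
Each point is 1 of the 251 cells with a UMI of Pf4 or Mrc1, by library (horizontal axis, points shifted sideways) and by the share of its UMIs from Cd74, H2-Aa, H2-Ab1 and H2-Eb1 (vertical axis, % + 0.05 on a log axis), with the cut of 1% dashed. In libraries 7 to 9, 69 of 181 cells lie at or above it, and in libraries 1 to 3, 1 of 58.

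Pooled, libraries 1 to 3 and 7 to 9 lay far apart, with 1 of 58 cells (1.72%, 0.0436 to 9.24) and 69 of 181 (38.1%, 31.0 to 45.6) at or above the cut. By library, the intervals of libraries 1, 2 and 3 reached up to 14.9, 36.9 and 21.8% and each overlapped that of library 8. Depth moved with the pooled shares as well, at medians of 405.5 and 912 UMIs. Among cells thinned to 500 UMIs, 1 of 19 (5.26%, 0.133 to 26.0) and 98 of 178 (55.1%, 47.4 to 62.5) held any UMI of the 4 genes, so that the pooled intervals remained apart. Of the 19, 15 were of library 3 and 4 of library 1. The intervals of these libraries alone (0.169 to 31.9% and 0 to 60.2%) overlapped that of library 8 (25.8 to 54.7%). Without thinning the shares with any UMI were 8.62% and 61.9%. Thinned microglia reference cells of libraries 7, 8 and 9 held one in 9.17, 7.31 and 11.6%, against 54.5, 39.6 and 64.0% of the macrophages. The libraries differed in the same direction in other cells. Any UMI of the 4 genes was held by 6 of 270 reference microglia (2.22%) in libraries 1 to 3 and by 222 of 1424 (15.6%) in libraries 7 to 9, or by 3 and 9.28% after thinning. In the other cells the summed list of 10 MHC class II genes was at 268, 234 and 162 CPM in libraries 1 to 3 and at 1477, 1056 and 859 CPM in libraries 7 to 9, while summed over the reference microglia it overlapped, at 523, 1598 and 430 against 1043, 791 and 918 CPM. What sets these libraries apart cannot be told here, since their region and sleep group are known only for library 7.

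Within libraries 7, 8 and 9 the 69 high and 112 low cells were compared as sums. Of 10000 genes with a UMI, 13 were higher in the high cells with intervals apart in each of the 3 libraries (0.13%) and 3 were lower (0.03%). The 13 included the 4 genes that set the cut. The others were H2-DMa and H2-DMb1, which load peptide onto MHC class II, Cd52, Lyz2 and 5 ribosomal protein genes, and the 3 lower were Stab1, Sepp1, which encodes selenoprotein P, and the mitochondrial gene mt-Atp6.

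Lyz2 was at 21508, 14472 and 16184 CPM in the high cells and at 8446, 5734 and 7907 in the low cells of libraries 7, 8 and 9. The high cells were above the low ones in all 3, by 2.55-, 2.52- and 2.05-fold. Stab1 was at 300.1, 193 and 151 CPM in high cells and at 1005, 1210 and 1210 in low ones. Sepp1 was at 2551, 1930 and 1407 CPM against 4835, 4581 and 3898. Cd52, a small surface glycoprotein of leukocytes, was at 1350, 868 and 1357 CPM against 314, 144 and 403.

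**Figure D5:**
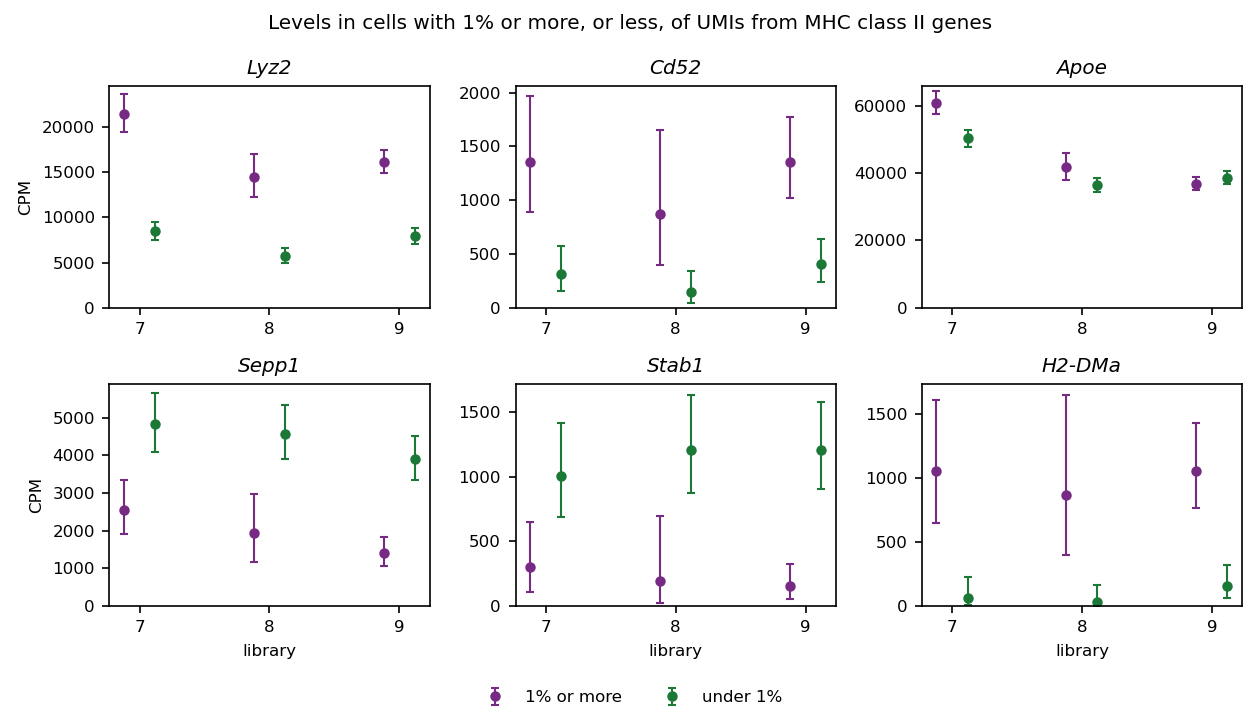
Summed levels (vertical axes, CPM) of 6 genes in the cells with at least 1% of UMIs from MHC class II genes (purple) and in those with less (green) in libraries 7, 8 and 9, with exact 95% Poisson intervals. Lyz2, Cd52 and H2-DMa are higher and Sepp1 and Stab1 lower in the purple cells with intervals apart in all 3 libraries, and Apoe is apart only in library 7.

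Of the 20 macrophage markers outside the rule other than Stab1, 11 were lower in the high cells in each of the 3 libraries, 1, Lyz2, was higher, and 8 ran in no single direction. None of the 11 had its intervals apart in all 3 libraries, and 5 of them had under 10 UMIs in at least 1 library. For comparison, 10.1% and 3.25% of all 10000 genes were lower and higher in all 3 at any size. Clec10a, a galactose-binding lectin, had 0, 0 and 2 UMIs in high cells and 17, 14 and 5 in low cells. Folr2 had 0, 0 and 2 against 8, 9 and 10, and Cp, which encodes the copper-carrying ferroxidase ceruloplasmin, had none against 5, 15 and 16. The high and low cells had unequal summed UMIs. Intervals were apart for Clec10a only in library 7, for Cp only in library 9 and for Folr2 in none. Apoe, in contrast, was at 60921, 41968 and 36841 CPM against 50331, 36420 and 38706, close in both groups and in no single direction.

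Ccr2, the chemokine receptor that marks monocytes and cells derived from them, was found in 13 of the 69 high cells (18.8%, 10.4 to 30.1) and in none of the 112 low cells (0 to 3.24%). These shares and limits are of cells with a UMI, not of cells expressing the gene. In the microglia reference of the same libraries 3 of 1424 cells held it. The median depths were 961, 888.5 and 817 UMIs. By library the high cells with Ccr2 numbered 2, 1 and 10. Of other monocyte genes, Plac8 and Ly6c2 had no UMI in the high cells of any of the 3 libraries, and S100a4 had 2, both in library 9.

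The spread between libraries was taken over all genes of at least 200 CPM in the summed chosen cells. Of 607 such genes, 365 were at least 10-fold apart between the highest and lowest of the 9 libraries on the scale of CPM + 10, and 43 were so between the 4 libraries with at least 30 chosen cells. A gene at 200 CPM is expected at 0.583, 0.898 and 2.69 UMIs in libraries 2, 5 and 1, where a sum of 0 by counting alone can give such a ratio, so these counts do not measure differences between libraries. Over all 9 the widest were Gh, Lyz2, Pf4, C1qb, C1qc, C1qa, Sepp1, Ccl7, Cga and Mia, and each had library 4 or 6 at 1 end. Over the 4 large libraries they were led by H2-Ab1, which had no UMI in library 1 and was at 2849, 1249 and 3609 CPM in libraries 7, 8 and 9. Hba-a2 of red cells ranked next and then H2-Eb1, with none in library 1 and then 1729, 532 and 1642 CPM. Acta2 of mural cells, Ttr of the choroid plexus and Tagln of mural cells followed. Each of these and Hba-a2 was present in the other cells of the same libraries, except Ttr in library 1. Ttr, for one, was at 1595 CPM in the chosen cells of library 9 and at 28059 CPM in its other cells.

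Fos, an immediate early gene that rises within minutes of stimulation, was also among these genes. It was at 19.0 CPM (0.481 to 106) in library 7 from 1 UMI, at 1433 (1117 to 1810) in library 8 and at 640 (482 to 834) in library 9, and at 1115 in library 1. In the cells with Pf4 or Mrc1 alone it was at 19.3, 599 and 640 CPM in libraries 7, 8 and 9, since only 27 of the 70 UMIs of library 8 were in these cells and the rest in 2 cells admitted by Cbr2. The reference microglia were at 507, 299 and 502 CPM in these libraries and the other cells at 143, 264 and 227, so that library 7 was lowest in the other cells too and not in the microglia. The summed list of 15 immediate early genes was at 1159 CPM (886 to 1488) in the chosen cells of library 7, 5589 (4945 to 6292) in library 8, 3563 (3175 to 3985) in library 9 and 21831 in the 10 cells of library 5. In the cells with Pf4 or Mrc1 it was at 1157, 3395 and 3506 CPM in libraries 7, 8 and 9, against 4600, 3321 and 3508 in the microglia reference, so that library 7 lay well below it and libraries 8 and 9 were close to it. Libraries 1 and 2 lay above it, at 6394 and 6179 CPM against 1591 and 2142, and library 3 below it, at 1118 against 3096. The reference of library 5 was at 5855 CPM. Against microglia the list had no gene called in either direction over the 6 libraries. The lists of heat shock, glucocorticoid-responsive and clock genes had no gene called higher, and of clock genes Bhlhe41 alone was called lower.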

How the data were processed

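Single-cell suspensions were captured with 10x Genomics version 2 chemistry. The submitters' processing notes name Cell Ranger 2.2.0, R 3.5.3 and GRCm38. The authors deposited 1 table of raw UMI counts for 18634 genes and 29571 cells, not normalized and already filtered for cells, with a barcode and a library code per column. What the codes stand for is not given in the sources used here. Library 7 was tied to brainstem, normal sleep, because it held all 1999 barcodes of the part of the study's cell list held here, against 5 to 13 in each other library.

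The member rule and all gene lists (33 lists, members of the border-associated macrophage and microglia lists included) were chosen with earlier results of these data known. No test was made, since each library is 1 pooled sample and the cells were chosen on their counts. Counts were summed per library and cell class and given per 1000000 UMIs of that class (CPM). Poisson intervals were attached to these sums and Clopper-Pearson intervals to shares, exact and at 95% in both cases. Reads are counted as molecules through UMIs, and both intervals cover counting error only. Folds are differences of log2(CPM + 10), and the genes tested are those with a UMI in either class. The call rule asked for at least 2-fold in 1 direction in every library. This understates the change of low genes. Named were the 5 genes of the rule and the markers, up to 4 leading genes of a list and any called list member, the 10 highest and 10 lowest called genes, and the 10 genes with the widest spread between libraries. Genes named beyond these were chosen after their values were seen, and 1 gene the rule names is not reported here. No doublet caller was run. UMIs of other cell types were counted instead. Overlapping and near-identical genes were taken as counted. Thinning drew 500 UMIs per cell without replacement (seed 7). The call rules were also tried on simulated counts, and no result from these is used here. Python 3.11.15, numpy 2.4.6, scipy 1.17.1 and pandas 2.3.3 were used. Promoter windows are from RefSeq, and gene positions from GENCODE on GRCm38.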

Additional observations from a re-analysis of the deposited data

How the results depend on the processing

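The number of chosen cells was 263 and fell to 80 at a minimum of 1000 UMIs per cell. It was between 180 and 251 with 3 or more rule UMIs, with 2 of the 3 rule genes, without cells holding other cell types' RNA or with a UMI of Pf4 or Mrc1 required, the last chosen after seeing the data. At the minimum of 1000 UMIs the shares of libraries 1, 2 and 5 were 0% and those of libraries 3 and 9 were 0.0894% and 1.67%. Those of libraries 4, 6 and 7 rose from 0.143, 0.128 and 1.23% to 0.203, 0.236 and 1.51%, and that of library 8 was 1.36%. After thinning to 500 UMIs the shares of libraries 1, 2, 4, 5, 6, 7, 8 and 9 moved to 0.476, 0, 0.0322, 0.0642, 0, 0.837, 1.06 and 1.72%. In libraries 1 and 2, 31 of 35 and 8 of 8 chosen cells held under 500 UMIs and were left out before thinning. Of all cells there, 1735 of 2575 and 2036 of 3175 were left out. The 4 chosen cells that remained in library 1 all met the rule after thinning. Beyond these counts the cause of each move was not tested, but fewer cells of libraries 1, 2 and 5 reach these depths.

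Genes called against the microglia reference, 3 higher and 12 lower over the 9 libraries, were 5 and 38 with 3 or more rule UMIs and 6 and 48 without cells holding other cell types' RNA, settings that left 8 libraries. They were 41 and 139 without the 3 libraries rich in growth hormone. Alternatives chosen after seeing the data gave 26 and 36 (Pf4 or Mrc1 required, 7 libraries), 104 and 250 (4 libraries with at least 30 chosen cells), and 41 and 27 (intervals apart in those 4). A pseudocount of 1 CPM, a floor of 50 CPM, other totals and a mean over cells kept both counts within 1.5 times, at 2 to 3 higher and 11 to 14 lower. Genes of at least 200 CPM that were 10-fold apart between libraries fell from 365 to 239 without the libraries rich in growth hormone and to 43 among the 4 large libraries, counts that counting error in shallow libraries can raise. In libraries 7, 8 and 9 the shares with an MHC class II UMI stayed within their intervals after thinning, whereas in library 1 the share went from 8.57% to 0%, with 4 cells left. In library 4 the levels of Pf4, Lyz2 and Mrc1 went from 231, 231 and 46.3 CPM to 3333, 5000 and 1667 CPM without cells holding other cell types' RNA and to 1570, 1602 and 333 CPM as means over cells. With 3 or more rule UMIs Pf4 in library 5 went from 4010 to 9885 CPM, and over the cells named Macrophage Pf4 and Mrc1 in library 7 went from 3590 and 912 to 1048 and 421 CPM. Chosen and reference cells were compared within each library. No analysis paired over regions or sleep groups was made, because these are known only for library 7 and the labels give no shared replicate numbers.

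With 2913 to 85893 UMIs summed over the chosen cells of a library, a gene under 34.9 CPM in the deepest, or under 1030 CPM in the shallowest, lies below 3 counts. Values that low, those of Ehd4, Cd163 and Lyve1 in library 2 among them, rest on 1 or 2 UMIs.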
